A study of Mus musculus with 4 samples.

Results

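The tetraspanins with CD names are Cd9, Cd37, Cd53, Cd63, Cd81, Cd82 and Cd151, cell surface proteins that many laboratories follow by antibody. They were taken as every probe set that the platform annotation assigned to exactly 1 gene, that gene being one of the 7. The rule found 14 probe sets of 6 genes, out of 34945 probe sets of 18194 genes with a single gene name in the whole series. Cd9 and Cd81 had 1 probe set each, Cd37, Cd53 and Cd82 had 2 each, and Cd151 had 6. Cd63 had none in the annotation used here and is named only.

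Tetraspanins cross the membrane 4 times and gather other membrane proteins, among them integrins, immunoglobulin superfamily proteins and proteases, into patches called tetraspanin-enriched microdomains. They have few ligands of their own and act mainly through these partners, on adhesion, migration, cell fusion, protein sorting and exosome formation. In blood, Cd37 and Cd53 are largely restricted to leukocytes, whereas Cd9, Cd81, Cd82 and Cd151 are also made by many other tissues, and Cd9 is abundant on platelets.

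The 4 arrays compared 2 samples of CD34(-)KSL hematopoietic stem cells (HSC) with 2 samples of CD34(+)KSL multipotent progenitors (MPP), both purified by cell sorting from mice of the C57BL/6 background. The KSL fraction of bone marrow, lineage-negative cells with c-Kit and Sca-1 on their surface, contains the most immature blood cells. The mice carried no named allele and received no named treatment, and the age and number of animals behind a sample are not given in the sources used here. RNA equivalent to 3000 cells was amplified in a pair of cycles for each Affymetrix mouse array. Such an array reads each transcript with 1 or more probe sets, whose intensity is in arbitrary units. The labels call the samples biological replicates but do not tie them to animals or sorts, and p-values therefore measure only how far these samples spread.

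The median intensity of an array lay between 21.3 and 26.9 units, and the number of arrays limits the precision of every value. Transcripts that mark the groups ran with the labels. Cd34 read 469 and 235 units in HSC, against 1967 and 2302 in MPP, and Flt3, a receptor of early progenitors, 166 and 69.7 in HSC, against 1171 and 1467 in MPP. Slamf1, a receptor used to isolate stem cells, read 366 and 400 units in HSC, against 30.2 and 37.5 in MPP. HSC replicate 2 stood apart in its actin control, with a 3' to 5' signal ratio of 9.42, against 5.26 on HSC replicate 1 and 4.99 and 5.01 on the MPP arrays, so results are given without it where it moved them. In sorted bulk samples, fewer cells that make a transcript and less of it per cell cannot be told apart.

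The promoters of 4 genes are shown first, because they belong to the genes that moved: Cd9 and Cd81, which were higher in HSC, and Cd53 and Cd37, which were lower (Cd37 by 1 of its 2 probe sets). The sequences are RefSeq's, build GRCm38.p6, on the strand of the gene, from 100 bases before to 20 bases after the listed transcript start. Capitals mark GGGCGG, the GC box, and GAGGAAGT, a motif of the ETS type, on either strand, so that the second reads ACTTCCTC where it lies on the opposite strand.
Cd9, chr6:125494741-125494860, minus strand: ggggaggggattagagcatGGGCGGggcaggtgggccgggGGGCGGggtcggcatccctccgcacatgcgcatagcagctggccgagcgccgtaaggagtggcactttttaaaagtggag
Cd81, chr7:143052650-143052769, plus strand: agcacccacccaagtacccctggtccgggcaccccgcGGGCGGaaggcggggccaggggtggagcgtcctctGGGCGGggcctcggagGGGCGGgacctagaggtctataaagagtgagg
Cd53, chr3:106790130-106790249, minus strand: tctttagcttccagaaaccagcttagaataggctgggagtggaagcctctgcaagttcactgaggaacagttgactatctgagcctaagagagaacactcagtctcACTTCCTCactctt
Cd37, chr7:45238820-45238939, minus strand: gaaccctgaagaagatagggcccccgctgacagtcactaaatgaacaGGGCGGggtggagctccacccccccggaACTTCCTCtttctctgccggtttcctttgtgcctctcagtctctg

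All 7 genes had a promoter in the RefSeq table, 11 in all, since Cd82 had 4 and Cd151 had 2. Each covered 250 bases before and 50 bases after a transcript start. Cd9 and Cd81 held 18 and 23 CpG dinucleotides in these 300 bases, against 4 in Cd53 and 8 in Cd37, and the median over all 32851 promoters was 7. The GC box was present at 2 places before the start of Cd9 and at 3 places before the start of Cd81, once before that of Cd37, and not in the Cd53 window; 35.7% of all promoters held it. The genes without a call had it as well, at 2 places in 1 of the 2 Cd151 promoters (20 CpG), and in 2 of the 4 Cd82 promoters (16 and 15 CpG). The remaining Cd82 promoters held 11 and 4 CpG, the second Cd151 promoter 4 and the Cd63 promoter 6. GAGGAAGT lay at bases -25 to -18 of Cd37, at bases 7 to 14 of Cd53 and in 1 of the 4 Cd82 promoters, and 3.2% of all promoters held it. It contains GAGGAA and GGAAGT, found in 28.3% and 23.8% of promoters and also in the Cd63 promoter. The other motifs searched, on both strands, were CCGGAAGT, AGATAA and TGACTCA, with no match in the 11 promoters (3.89%, 11.2% and 5.2% of all), TATAAA, matched in Cd81 (13.6%), CAGCTG, matched in Cd9 and Cd81 (16.3%), and TGTGGT, matched in Cd53 and Cd82 (16.8%). The motifs were chosen after the sequences were seen, and a match is a description of the letters.

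The comparison asked how these transcripts differ between HSC and MPP. By the brightest tested probe set of each gene, Cd9 and Cd81 rose in HSC, Cd53 fell, and Cd37, Cd82 and Cd151 did not pass the test. That is 2 higher and 1 lower of 6 genes, at a Benjamini-Hochberg adjusted p under 0.05 in limma over all probe sets. Among all 12382 genes tested, 7.71% were called higher in HSC and 5.9% lower, 13.6% in all. The median log2 difference of the 6 genes, HSC minus MPP, was 0.31, against 0.10 over all genes tested. Of the 14 probe sets, 12 passed the filter on dim signals and were tested, with 2 called higher and 2 lower, against 5.96% and 4.65% of all 27022 tested. The HSC and MPP values did not overlap for 5 of the 6 genes and for 7 of the 12 probe sets, against 58.7% of all genes and 54.6% of all probe sets. Differences are on the log2(intensity + pseudocount) scale, with a pseudocount of 6.01 units, which understates the change of dim transcripts.

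**Figure D1:**
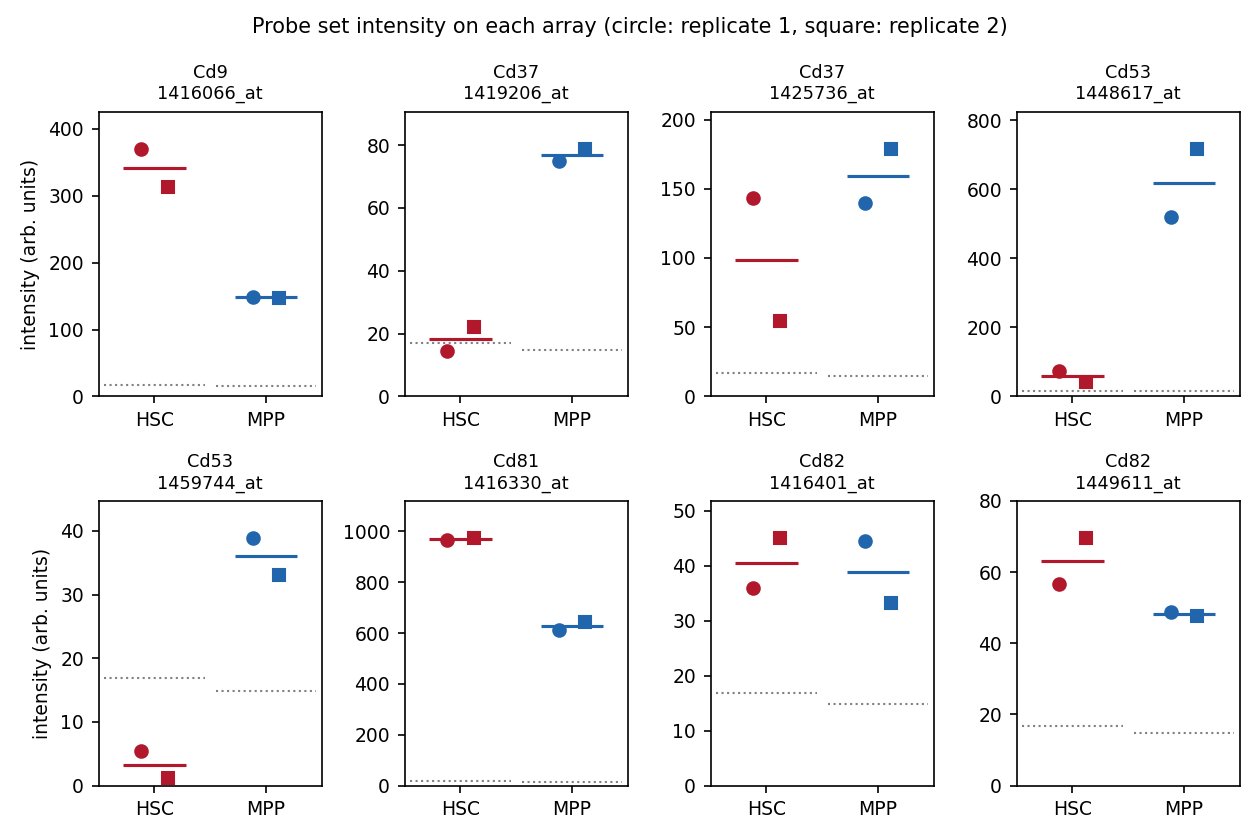
Intensity in arbitrary units of the 8 probe sets of Cd9, Cd37, Cd53, Cd81 and Cd82 on each array, HSC in red and MPP in blue, each panel on its own linear axis from 0; the short lines are group means and the dotted lines the higher of the 2 background floors of each group. Both Cd53 probe sets and the first Cd37 probe set were lower on both HSC arrays, and Cd9 and Cd81 were higher on both.

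Cd53 is a leukocyte tetraspanin that associates with integrins and has been linked to adhesion and signalling of lymphoid and myeloid cells. Its brighter probe set, 1448617_at, read 73.6 and 42.9 units in HSC, against 519 and 718 units in MPP. Every MPP value was thus several times any HSC value, and all 4 were above the floor, the highest signal of 27 Bacillus subtilis control probe sets on the same array (13.6 to 16.9 units). The group means were 58.2 ± 21.7 units in HSC and 618 ± 140 units in MPP (SD, n = 2 each). Cd53 fell by 3.31 on the log2 scale (SE 0.27, 95% interval -3.90 to -2.71, limma adjusted p = 5.65e-05), or 9.88-fold. The second Cd53 probe set, 1459744_at, read 5.37 and 1.26 units in HSC, below the floor on both arrays, against 38.9 and 33.1 units in MPP, above it. It was at least 1.84-fold lower in HSC by that bound, and it was not tested, since its mean level of 13.5 units lay just under the filter's limit of 13.9. The call for Cd53 held under all 14 alternative settings, with log2 differences from -3.66 to -2.95.

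Cd37 is a leukocyte tetraspanin best known from mature B cells, where it takes part in signalling and antibody responses. Its 2 probe sets went the same way, but the test called only the dimmer one. That probe set, 1419206_at, read 14.6 and 22.2 units in HSC, against 75.0 and 78.9 units in MPP, so the groups did not overlap and only 1 of the 2 HSC values was above the floor. The difference was -1.78 on the log2 scale (SE 0.33, adjusted p = 0.00680). That call ended without MPP replicate 2 (log2 difference -1.75, adjusted p = 0.0527). The brighter probe set, 1425736_at, which stands for the gene, read 143 and 54.2 units in HSC, against 140 and 179 units in MPP. Here the groups overlapped, because HSC replicate 1 was slightly above MPP replicate 1 and HSC replicate 2 was the lowest of the 4 arrays.

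The brighter Cd37 probe set had a log2 difference of -0.79 (SE 0.37, 95% interval -1.61 to 0.03, adjusted p = 0.223). Without HSC replicate 2, the array with the high actin ratio, the difference was -0.14. Without HSC replicate 1, so with HSC replicate 2 alone for HSC, it was -1.45. Each of these fits leaves 1 HSC array, so neither holds the spread between the HSC values of 143 and 54.2 units. With the mean of both probe sets the difference was -1.29, with a call (limma adjusted p = 0.00857). The dimmer probe set was at -2.01 without HSC replicate 2. The part of RNA quality in the split between the probe sets was not tested.

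Cd9 is carried by platelets, megakaryocytes and many epithelial cells, works in adhesion and in sperm-egg fusion, and is itself used as a marker of stem cells in the mouse. Its single probe set, 1416066_at, read 371 and 313 units in HSC, against 149 and 147 units in MPP. The HSC values were both above the MPP values, which lay close together. Group means were 342 ± 40.4 units in HSC and 148 ± 1.31 units in MPP (SD, n = 2 each). Cd9 rose by a log2 difference of 1.17 (SE 0.20, 95% interval 0.73 to 1.61, adjusted p = 0.00393), or 2.25-fold. The call held in 13 of 14 alternatives and ended without a trend in the prior variance (same difference, adjusted p = 0.0575).

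Cd81 is made by lymphocytes and by many cells outside blood, and is a common exosome marker. Its single probe set, 1416330_at, read 964 and 974 units in HSC, against 612 and 645 units in MPP. The groups did not overlap, and the spread within each was small beside the gap between them. Means were 969 ± 7.06 units in HSC and 628 ± 22.8 units in MPP (SD, n = 2 each). Cd81 rose by a log2 difference of 0.62 (SE 0.16, 95% interval 0.27 to 0.97, adjusted p = 0.0310), or 1.54-fold. Among the brightest 2703 probe sets tested, to which it belongs, the median difference was -0.10. The call was near the threshold and held in 9 of 14 alternatives. It ended without MPP replicate 1 or 2, where the difference stayed at 0.58 and 0.66 and the SE was 0.26 in both. Each of those fits leaves 1 MPP array, so the lost call does not show that the result depends on either array. Making the array medians equal also ended the call (0.39, limma adjusted p = 0.150). So did testing all probe sets, dim ones included, and leaving out the variance trend (0.62 in both, limma adjusted p = 0.0570 and 0.182).

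Cd82, also called Kai1, is a tetraspanin first studied as a suppressor of metastasis and has been linked to quiescence of stem cells in mouse marrow. Its brighter probe set, 1449611_at, read 56.5 and 69.6 units in HSC, against 48.8 and 47.6 units in MPP. Its dimmer one, 1416401_at, read 35.9 and 45.1 units in HSC, against 44.5 and 33.3 units in MPP. The first showed no overlap between the groups, and in the second the groups overlapped. The log2 differences were 0.34 (95% interval -0.29 to 0.98, adjusted p = 0.508) and 0.05 (-0.68 to 0.79, adjusted p = 0.944). These intervals include 0 and also a rise in HSC of the size measured for Cd81, so a change of that size is not excluded for Cd82. Without HSC replicate 2 the brighter probe set was at 0.21 and the dimmer one, 1416401_at, below 0 at -0.09. The dimmer one also turned below 0 without MPP replicate 2 (-0.13), with equal array medians (-0.18) and after quantile normalization (-0.16).

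Cd151 binds laminin-binding integrins and anchors cells to basement membranes. Of its 6 probe sets, 5 were tested and none was called. The brightest, 1437670_x_at, read 589 and 576 units in HSC, against 513 and 446 units in MPP, without overlap. Its log2 difference was 0.28 (SE 0.17, 95% interval -0.10 to 0.66, adjusted p = 0.354). The other bright one, 1456085_x_at, read 563 and 461 units in HSC, against 498 and 389 units in MPP, and its groups overlapped.

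Across the 5 tested Cd151 probe sets the log2 differences lay between 0.11 and 0.28, and their 95% intervals reached from -0.56 at the lowest to 0.96 at the highest. Of these 5, 2 (40%) had groups without overlap, against 54.6% of all probe sets tested. The signs of most were not stable: with equal array medians 4 of the 5 lay below 0, between -0.12 and -0.01, and 1437670_x_at stayed above it at 0.05. After quantile normalization 1427525_at and 1451232_at were at -0.03 each. Without HSC replicate 2, 1424093_x_at was at 0.50, and without HSC replicate 1 at -0.05. Without MPP replicate 1, 1451232_at was at -0.25. The sixth, 1420921_at, read 14.7 and 6.18 units in HSC, against 18.2 and 4.97 units in MPP. It was above the floor on 1 array only and was not tested. Probe sets with the suffix _x_at, _s_at or _a_at can bind several transcripts, and without them the difference for Cd151 was 0.11 (adjusted p = 0.860).

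**Figure D2:**
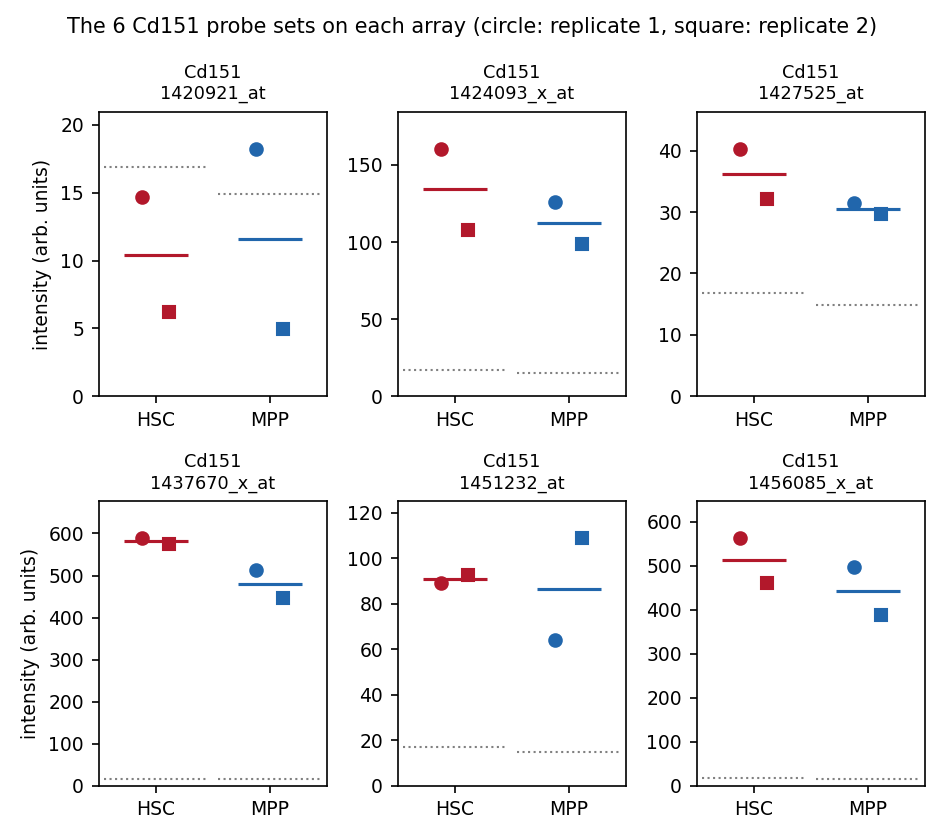
Intensity in arbitrary units of the 6 Cd151 probe sets on each array, HSC in red and MPP in blue, each panel on its own linear axis from 0; the short lines are group means and the dotted lines the higher background floor of each group. The groups overlap in all panels except those of 1427525_at and 1437670_x_at, and 1420921_at lies near or under the floor.

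**Figure D3:**
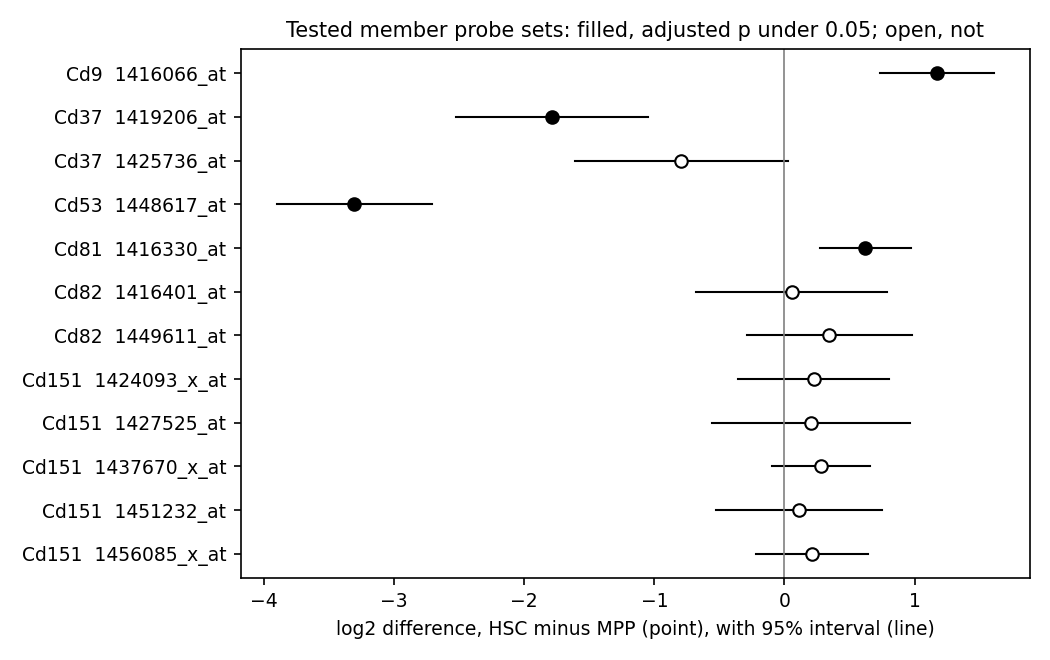
Log2 difference, HSC minus MPP, of the 12 tested probe sets (points) with 95% intervals from limma (lines); filled points had an adjusted p under 0.05. Cd53 and 1 Cd37 probe set lie below 0, Cd9 and Cd81 above 0, and the intervals of all Cd82 and Cd151 probe sets include 0.

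**Figure D4:**
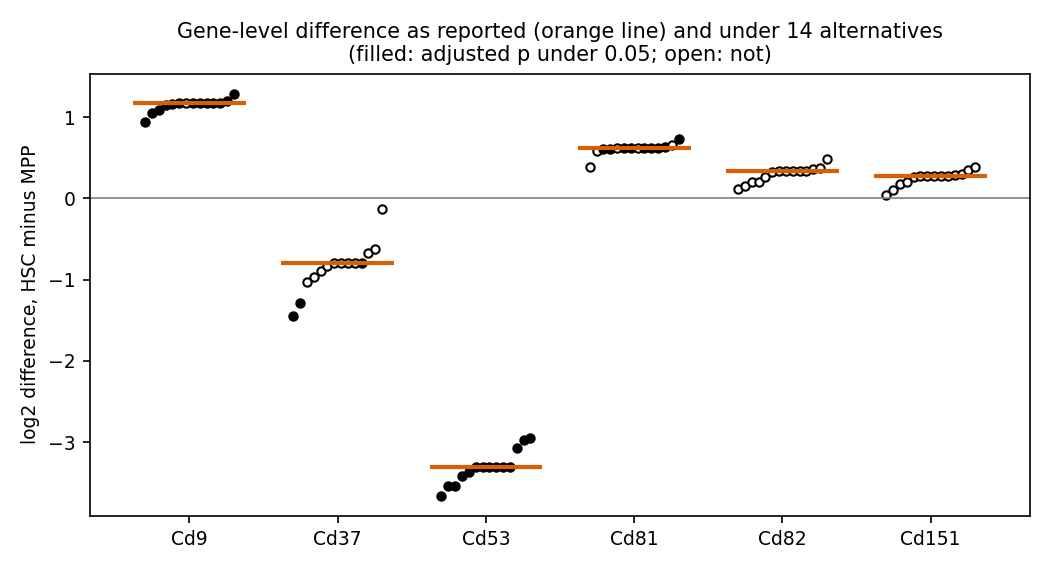
Log2 difference, HSC minus MPP, of the 6 measured genes by their representative probe set, as reported (orange lines) and under each of 14 alternative settings (points, filled where the adjusted p was under 0.05), ordered by value within a gene. Cd53 was called in all 14, Cd9 in 13, Cd81 in 9 and Cd37 in 3, and Cd82 and Cd151 in none.

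Tetraspanins are shared by many blood cells, so markers of other cells were read on the same arrays, each gene by its brightest probe set. The summed intensity of 11 megakaryocyte and platelet genes, cells rich in Cd9, was 2240 to 2293 units in HSC and 538 to 696 units in MPP, with 10 and 7 of the 11 above the floor on both arrays of the group. Much of the HSC sum was Vwf, at 920 and 1183 units, against 3.82 and 13.4 in MPP. Pf4, a platelet granule chemokine, read 497 and 382 units in HSC, against 203 and 151 in MPP, and the platelet receptor gene Gp6 was at or under the floor on all 4 arrays. For 14 myeloid genes, cells that carry Cd53 and Cd37, the sum was 282 to 488 units in HSC and 4393 to 5505 units in MPP. Mpo alone gave 3867 and 4658 of it in MPP, and 6 and 7 of the 14 were above the floor on both HSC and both MPP arrays. By the brightest tested probe set only Mpo and Csf1r of these were called, both lower in HSC. Cd14, Mmp9 and Adgre1 lay on the higher side in HSC without a call. Itgam and Camp, genes of mature myeloid cells, were at or under the floor throughout. The part of either marker group in the tetraspanin differences was not tested.

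Sums of the B cell markers overlapped between the groups, those of T cell markers were barely apart, and those of erythroid and endothelial markers were higher in HSC. The sum of 11 B cell genes was 249 to 359 units in HSC and 264 to 301 units in MPP, with 3 and 2 of them above the floor on both arrays, and Cd79a, Ebf1 and Fcrla were at or under it on every array. The sum of 11 T cell genes was 313 to 525 units in HSC and 253 to 301 units in MPP, and Cd3d, Cd3e, Cd3g, Cd4 and Cd2 were at or under the floor on every array. No T cell gene tested was called (smallest limma adjusted p = 0.146, for Cd247). Zap70 read 86.2 and 216 units in HSC, against 129 and 79.7 in MPP. The sum of 10 erythroid genes was 2085 to 2937 units in HSC and 1123 to 1242 units in MPP. Most of that gap was Car1, a carbonic anhydrase gene of red cells, at 672 and 1215 units in HSC, against 17.7 and 8.87 in MPP. Ermap and Klf1 were also called higher in HSC (limma adjusted p = 7.84e-05 and 0.00228), and Epor, Rhd, Hemgn and Tfrc were not called. Alas2 and Slc4a1 were at or under the floor on every array. The sum of 11 endothelial genes was 854 to 1027 units in HSC and 629 to 650 units in MPP. Cdh5 was at or under the floor on every array. Esam, Cldn5, Kdr, Robo4 and Tie1 of that list were called higher in HSC (log2 differences 1.10 to 2.19, limma adjusted p = 0.00143 to 0.0341). Egfl7 of that list was called lower in HSC by a probe set ending in _x_at (log2 difference -1.29, limma adjusted p = 0.0375). That probe set read 191 and 74.2 units in HSC, the lower value on the array with the high actin ratio, against 303 and 301 in MPP. Of the 4 Egfl7 probe sets tested, 1 lay above 0 and 1 was called. The part of these cells was not tested either.

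The rest of the tetraspanin family was read from a list of 24 genes, of which 17 were tested. In HSC, 3 rose, 1 fell and 13 were not called, where 7.71% of all genes were called higher and 5.9% lower. The median log2 difference was 0.25, against 0.10 over all genes tested. Tspan33, a tetraspanin that brings the protease Adam10 to the surface and is needed for normal red cell formation in mice, read 146 and 148 units in HSC, against 30.5 and 23.1 units in MPP. Its log2 difference was 2.23 (SE 0.28, adjusted p = 5.95e-04), and all 4 of its tested probe sets lay above 0, 2 of them called. That call rested on a probe set ending in _x_at, and without probe sets that can bind several transcripts Tspan33 was at 1.47 (adjusted p = 0.0939).

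Tspan8, known from gut and carcinoma cells, read 42.0 and 49.8 units in HSC, against 4.82 and 8.09 units in MPP, both below the floor, and was at least 2.55-fold higher (adjusted p = 0.0119). Its call ended without HSC replicate 2 (adjusted p = 0.0568) and with the mean of its 3 tested probe sets (log2 difference 1.00, adjusted p = 0.145). It also ended with no filter (adjusted p = 0.0602) and without probe sets that can bind several transcripts (0.73, adjusted p = 0.441). Tspan4, which takes part in forming migrasomes, read 987 and 843 units in HSC, against 615 and 570 in MPP, a log2 difference of 0.62 (SE 0.17, adjusted p = 0.0403) that was called in 8 of 14 alternatives. It lost the call without HSC replicate 1 (adjusted p = 0.0747) and without either MPP array (replicate 1, adjusted p = 0.173; replicate 2, adjusted p = 0.285). The same happened once the array medians were made equal (0.39, adjusted p = 0.180). Tspan2, known from myelinating cells, fell by 1.41 (SE 0.26, adjusted p = 0.00705), with 45.1 and 61.4 units in HSC, against 134 and 167 units in MPP. Without the variance trend Tspan2 was not called (limma adjusted p = 0.0540). All 3 of its tested probe sets lay below 0, and the call ended without MPP replicate 2 (-1.25, adjusted p = 0.0642).

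The partners of tetraspanins came from a list of 41 genes, 34 of them tested, with a median log2 difference of 0.30, against 0.10 over all genes tested. In HSC, 6 rose, 3 fell and 25 were not called, beside 7.71% higher and 5.9% lower among all genes. Ifitm1, an interferon-induced membrane protein that binds Cd81 in human cells, read 5648 and 6668 units in HSC, against 2574 and 2454 units in MPP (log2 difference 1.29, SE 0.15, adjusted p = 4.54e-04), and all 14 alternatives called it. Itga6, the integrin subunit that pairs with Cd151 in laminin receptors, read 964 and 848 units in HSC, against 525 and 447 units in MPP. Its log2 difference was 0.89 (SE 0.17, limma adjusted p = 0.00828), with both tested probe sets called. That call ended without the variance trend (limma adjusted p = 0.108) and without MPP replicate 2 (0.78).

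Itgb3, the beta subunit of the platelet integrin that associates with Cd9, read 205 and 223 units in HSC, against 74.1 and 15.2 units in MPP (2.42, SE 0.48, adjusted p = 0.00994). The 2 MPP values lay far apart, and the difference was 3.37 without MPP replicate 1 and 1.46 without MPP replicate 2, both called, while the call ended with no filter on dim signals (adjusted p = 0.0552) and without a trend of the variance on mean level (adjusted p = 0.105). Its partner subunit gene Itga2b, with 313 and 231 units in HSC and 237 and 174 units in MPP, did not pass the test (0.39, adjusted p = 0.336). Of the protein kinase C genes, whose products bind several tetraspanins, Prkcb read 124 and 106 units in HSC, against 37.0 and 16.8 in MPP (1.95, adjusted p = 0.00510). The Prkcb call ended without the variance trend (limma adjusted p = 0.0504). Prkca was at 0.99 (adjusted p = 0.0123), but its 2 tested probe sets lay on opposite sides of 0 and their mean was at 0.22 with no call (adjusted p = 0.676), and the call also ended without MPP replicate 2 (0.91, adjusted p = 0.0889). Kit, which complexes with tetraspanins in human blood cells and is part of the sort gate of both groups, completed the 6 (0.65, adjusted p = 0.0328, called in 7 of 13 alternatives and lost on leaving out HSC replicate 1 or either MPP array). Without MPP replicate 2, 3 partner genes were called higher.

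In the other direction, the leukocyte integrin gene Itgal read 7.23 and 20.4 units in HSC, against 124 and 165 units in MPP (-2.99, SE 0.38, adjusted p = 6.94e-04), with 1 of 2 HSC values above the floor. The hyaluronan receptor gene Cd44 was at -0.94 (adjusted p = 0.00404). Its call ended without the variance trend (limma adjusted p = 0.0895) and without MPP replicate 2 (-0.88). The sheddase gene Adam17 was at -0.72 (adjusted p = 0.0459), called in 8 of 14 alternatives and lost on leaving out HSC replicate 2 or either MPP array. Adam10, the protease that other tetraspanins escort, read 1466 and 2012 units in HSC, against 1469 and 1538 units in MPP, and its groups overlapped (0.19, adjusted p = 0.561). Igsf8, a direct partner of Cd9 and Cd81, read 34.4 and 40.3 units in HSC, against 68.0 and 68.1 in MPP, without a call (-0.78, adjusted p = 0.128). The other direct partner, Ptgfrn, read 23.2 and 37.9 units in HSC, against 6.97 and 12.9 in MPP, both under the floor, also without a call (adjusted p = 0.145). Of the 2 Ptgfrn probe sets tested, only 1 lay above 0. With equal array medians 8 partner genes were called lower, and without MPP replicate 2 only 1. Igsf8, Ptgfrn, Adam10 and Itga2b were chosen for their roles after the values were seen.

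**Figure D5:**
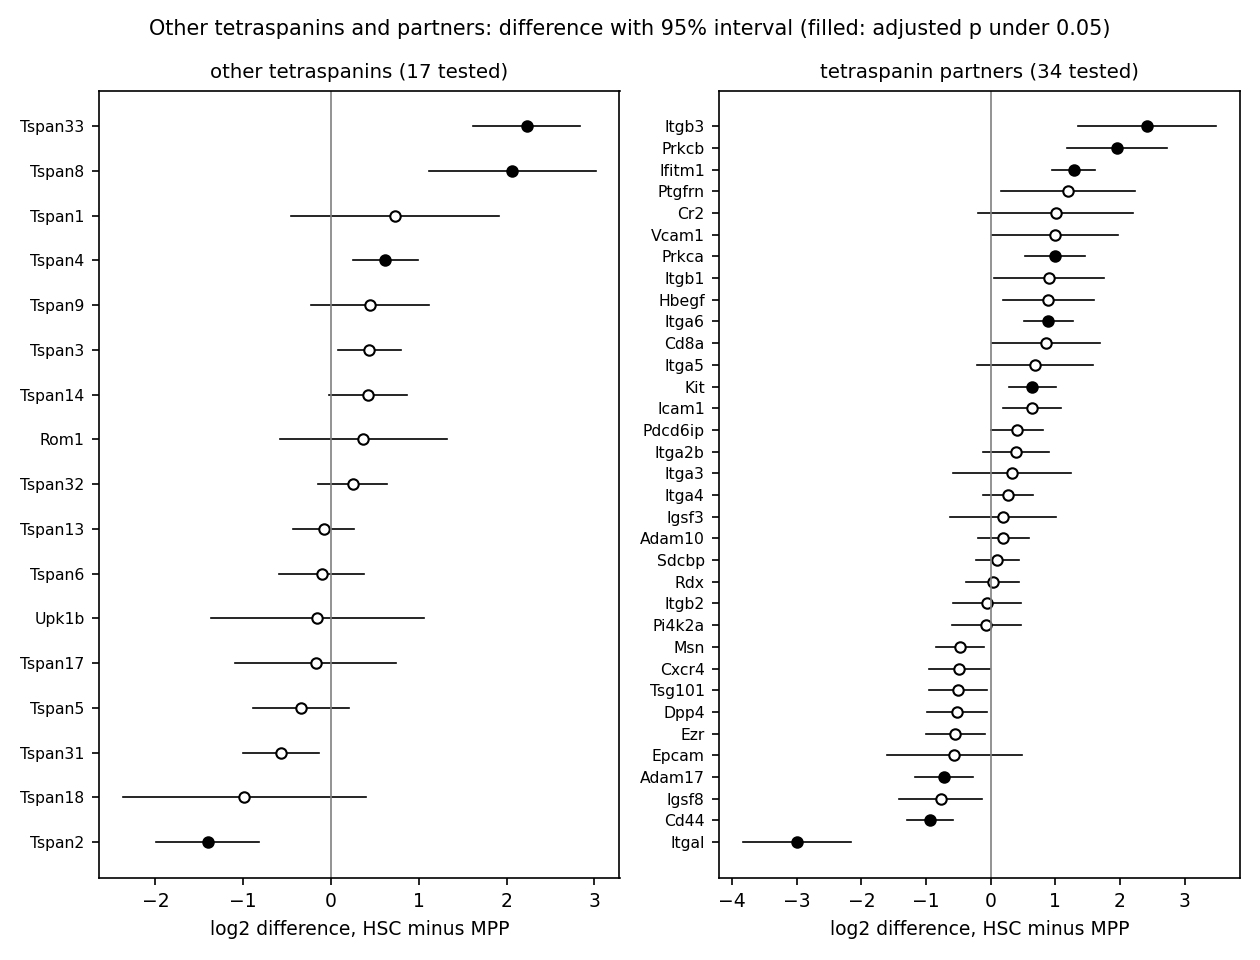
Log2 difference, HSC minus MPP, of the 17 other tetraspanins and the 34 partner genes tested, each by its brightest tested probe set, with 95% intervals (lines); filled points had an adjusted p under 0.05. Of the called genes, 9 lie above 0 and 4 below; the points of Tspan8 and Itgal rest on values under the background floor, on both MPP arrays for Tspan8 and on 1 HSC array for Itgal.

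For each measured tetraspanin, the gene with the nearest pattern over the 4 arrays was found among 11646 others by the Euclidean distance between log2 values centred on their mean. Cd53 was nearest to Slc35d3 (distance 0.23), a sugar nucleotide transporter family gene with 45.3 and 23.5 units in HSC, against 330 and 377 in MPP. Cd9 was nearest to Pik3ip1 (0.07), an inhibitor of PI3-kinase, with 900 and 723 units in HSC, against 363 and 345 in MPP. Cd81 was nearest to Pip4p2 (0.04), a phosphoinositide phosphatase gene, with 374 and 386 units in HSC, against 244 and 257 in MPP. Cd37 was nearest to Mal (0.11), Cd82 to Gripap1 (0.03) and Cd151 to Mxd1 (0.03). Mal was dim, with 21.5 and 3.97 units in HSC, against 19.8 and 27.1 in MPP, and only 1 HSC value was above the floor. With so many genes and only 4 arrays a close neighbour is found for any pattern.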

How the data were processed

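The deposited values were probe set intensities on a linear scale in arbitrary units, 1 value per probe set and array. Biotinylated cRNA was made by a two-cycle procedure and hybridised to Affymetrix arrays, per the labels' protocols; the software that summarised the signals was not given in the sources used here. Each array had a mean of 100.0 once its lowest and highest 2% were trimmed, so all had been scaled alike. No detection calls were used.

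The 64 control probe sets of 45101 were left out, a pseudocount of 6.01 (0.25 of the median value) was added before taking log2, and the dimmest 40% by mean level were removed, leaving 27022. The contrast HSC minus MPP was fitted without covariates by limma 3.58.1 under R 4.3.3 (lmFit, then eBayes allowing a trend; 2 residual and 8.48 prior degrees of freedom), with 2-sided p-values and Benjamini-Hochberg adjustment across all probe sets tested. A gene was represented by its brightest tested probe set. The fit was tested on simulated data. Symbols were updated by gene identifier to a RefSeq table (GRCm38.p6). A bound of at least N-fold is the bright group's mean log2 value against the dim group's, with values under the floor set to the floor. Alternatives changed the normalization, pseudocount, filter, variance trend, probe sets, replicate block or left out 1 array each. A fit with 1 array left out has 1 array in a group, so its spread within groups comes from the other group alone. A call that ends there can do so through this loss, with little change in the difference. Named were all members, every list gene that passed (up to 12 per list and direction), 4 genes that check the labels, and each member's nearest gene. The members, lists and settings were chosen with earlier results of these data known.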

Additional observations from a re-analysis of the deposited data

How the results depend on the processing

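The sign of the log2 difference, HSC minus MPP, of Cd9, Cd37, Cd53, Cd81, Cd82 and Cd151 was kept in all 14 alternatives for the value standing for each gene, but not for each probe set of Cd82 and Cd151. The median log2 difference of all tested probe sets was 0.11 as deposited, -0.13 with equal array medians and -0.01 after quantile normalization, so small differences are to be read against that shift. CD tetraspanin genes called higher numbered 2; they were 1 with equal array medians, 1 with no filter and 0 without the variance trend (limma; 2 at an unadjusted p under 0.05), and 1 to 2 when 1 array was left out, and the counts for probe sets were the same. Called lower was 1 gene, against 2 with the replicate block and 2 with the mean of a gene's probe sets, and 1 to 2 with 1 array left out; of probe sets it was 2, and 1 to 3 with 1 array left out. Of other tetraspanins, 3 were called higher, against 1 with no filter and 1 without probe sets of the suffixes _x_at, _s_at and _a_at, and 2 with any array left out. Of these, 1 was called lower, against 2 with equal array medians, 0 without the variance trend (limma; 2 at an unadjusted p under 0.05), and 0 to 2 with 1 array left out (0 without MPP replicate 2, with 1 at an unadjusted p under 0.05). Of partner genes, 6 were called higher and 3 lower. Ifitm1 and Itgal kept their calls without the variance trend, and those of Itga6, Itgb3, Prkcb, Prkca, Kit, Cd44 and Adam17 ended there. Without the variance trend 1 was called in each direction, with equal array medians 8 were lower, and with 1 array left out 3 to 8 were higher and 1 to 3 lower. The cause of these changes was not tested.

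The labels do not say whether a replicate number pairs arrays. Deviations from the group means of arrays with the same number correlated at 0.03. That value cannot show whether such samples shared a sort or animals. With the replicate block, Cd37 was called lower (log2 difference -0.79, adjusted p = 0.0205), the gene count lower was 2, and 2525 probe sets were called higher and 1833 lower, against 1611 and 1257 without it. That fit had 1 residual degree of freedom and infinite prior degrees of freedom. Its p-values therefore rest on a variance shared by probe sets of like mean level, not on the spread of each probe set. The Cd37 call and the larger counts carry this limit. Signals near 13.6 to 16.9 units cannot be told from background, which limits Cd37, Cd53 and Cd151 in their dim probe sets.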
